A study of Rattus norvegicus with 43 samples.

Results

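The genes described here encode the proteins of the mitochondrial ribosome, the mitoribosome, whose gene symbols begin with Mrpl or Mrps and a number. Of 14217 genes with a probe set of their own on the array, 73 carry such a symbol, 48 of them for the large subunit, with Mrps18a and Mrps30 counted there, and 25 for the small one. Where a gene had several probe sets, the one with the highest average signal was read. All 73 passed the filter on low values, a log2 value above 4 in at least 4 arrays, which 9093 genes passed in all. Mrpl11 and Mrpl24, whose role would place them in the set, were not analysed here. Mrps36 stands in the annotation under its current symbol Kgd4, which the rule did not take. It is listed with further subunits by its former name, and its place in the mitoribosome was not examined here.

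Messenger RNA was measured in A7r5, an established line of rat aortic smooth muscle, kept in medium with 2.5 ng/ml folic acid (deficient), 100 ng/ml (excess) or 10 ng/ml (sufficient) for 7, 14 or 21 days. There were 43 arrays, 4 each for deficient and excess medium at day 7 and 5 for each of the other 7 groups. The labels give no genetic change to the line, and all media were custom DMEM that differ, as labelled, in folic acid. Since the labels leave unsaid whether replicates came from separate cultures, the p-values speak only of the spread among these arrays, part of which may be technical. Values are log2 expression after GCRMA, a difference of 1 is a doubling, and a gene was called where the adjusted p of limma's moderated test was under 0.05. Whether the arrays of 2 groups overlapped is given to describe single genes, and it was not counted over all genes.

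Mitoribosomes translate the few proteins encoded in mitochondrial DNA, all of them subunits of the respiratory chain and of ATP synthase. Their RNA comes from mitochondrial DNA, and their proteins are made in the cytosol from nuclear genes and imported, so the genes below are nuclear. The large subunit joins amino acids and passes the new chain into the inner membrane, and the small subunit reads the messenger RNA. Some of the proteins have bacterial counterparts, and others were added during the evolution of mitochondria. In vascular smooth muscle, as elsewhere, the respiratory chain cannot be built without mitoribosomes. Mitochondria are also a main site of folate metabolism, where folate serves formate production and the formyl group of the initiator tRNA.

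The labelled cell type was checked against its markers. All 6 smooth muscle markers lay over the filter, with group means of 13.60 to 14.36 for the actin Acta2 and 13.88 to 14.33 for Tagln. Myh11 was the lowest of them, with 5.37 to 7.55. Of the markers of other cells, 0 of 3 endothelial and 0 of 4 macrophage genes passed the filter, and 1 of 4 epithelial genes did, the keratin Krt8. Of 5 markers of skeletal and cardiac muscle 4 passed. Their group means were 10.15 to 12.59 for Tnnt2, 6.04 to 9.22 for Acta1, 3.78 to 7.50 for Myh3 and 3.40 to 4.67 for Ckm. The arrays also carry probes for the 3′ and 5′ ends of beta-actin, and a high 3′ minus 5′ difference is commonly read as shortened RNA or cDNA. It was above 2 (log2) on 8 arrays, 3 of excess medium at day 14, 3 of excess medium at day 21 and 2 of sufficient medium at day 7. The counts of called members in the comparisons that involve those groups are given with and without these arrays, as are the calls of named members in excess medium that were lost without them. The sample titles also hold a running serial number, and the 11 arrays with serials above 45, which stand outside the order of the groups, include 3 of the excess arrays at day 14 and 2 at day 21.

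Promoter sequences are shown for 5 members on which the results below turn, to set their start regions side by side. Mrpl36 and Mrps27 were higher in excess medium at day 21, Mrpl17 was lower there, Mrpl57 was the member lower in excess medium at day 7, and Mrpl12 fell with time in all 3 media. Each sequence is the 150 bases before the annotated start, 5′ to 3′ along the gene, from RefSeq on build GRCr8, and capitals mark motif matches. Mrpl36 lies at chr1:31795122-31795271 on the minus strand, Mrps27 at chr2:32474054-32474203 on the plus strand, Mrpl17 at chr1:169575700-169575849 on the minus strand, Mrpl57 at chr15:36086307-36086456 on the plus strand and Mrpl12 at chr10:106256596-106256745 on the plus strand.
Mrpl36: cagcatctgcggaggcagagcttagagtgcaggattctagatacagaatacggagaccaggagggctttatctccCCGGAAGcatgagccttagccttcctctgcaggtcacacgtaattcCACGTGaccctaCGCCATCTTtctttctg
Mrps27: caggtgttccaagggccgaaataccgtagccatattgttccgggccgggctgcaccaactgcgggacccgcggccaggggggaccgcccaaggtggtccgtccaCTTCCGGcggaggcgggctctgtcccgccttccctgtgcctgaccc
Mrpl17: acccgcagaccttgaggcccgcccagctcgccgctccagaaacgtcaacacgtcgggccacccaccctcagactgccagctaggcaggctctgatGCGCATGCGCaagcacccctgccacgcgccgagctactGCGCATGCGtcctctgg
Mrpl57: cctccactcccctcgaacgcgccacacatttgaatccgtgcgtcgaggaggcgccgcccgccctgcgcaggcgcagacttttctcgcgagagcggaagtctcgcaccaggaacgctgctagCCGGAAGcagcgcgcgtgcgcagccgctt
Mrpl12: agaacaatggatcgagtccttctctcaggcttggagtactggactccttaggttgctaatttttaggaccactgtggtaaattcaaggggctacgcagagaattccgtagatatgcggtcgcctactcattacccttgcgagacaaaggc

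The motifs searched on both strands were GCGCATGCG for NRF1, CCGGAAG for the ETS family that includes GABP, AAGATGGCG for YY1 and the E-box CACGTG. NRF1, GABP and YY1 are known activators of nuclear genes for mitochondrial proteins, and Myc binds E-boxes. Different motifs did not overlap in the stretches shown. The Mrpl36 promoter held 3 of the 4 motifs: an ETS match at positions -75 to -69 from the start, an E-box at -29 to -24 and a YY1 match on the opposite strand at -17 to -9. In Mrps27 an ETS match lay on the opposite strand at -46 to -40, and a YY1 match at 30 to 38 after the start fell outside the stretch shown. Mrpl17 had NRF1 matches at -55 to -47 and -17 to -9, and another on the opposite strand at -54 to -46 that overlaps the first, and Mrpl57 had an ETS match at -29 to -23. Mrpl12 had 0 matches in the stretch shown.

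Over 300 bases per promoter, 250 before and 50 after the start, 59 members matched a RefSeq entry, with 61 promoters. The ETS motif was found in 32.8% of them and in 8.75% of all 33469 promoters listed. The YY1 motif was found in 13.1% of the members' promoters and in 1.73% of all, the NRF1 motif in 8.20% and 1.52%, and the E-box in 9.84% and 6.42%. Among members with a promoter, those 300 bases held the YY1 motif in 5 of the 24 that were lower at day 21 than at day 7 in sufficient medium, in 1 of the 12 that were higher and in 2 of the 23 not called. Of the members with a YY1 match, Mrpl36 had it before the start, and the others had it after the start. The NRF1 motif was held by 0 of the 24 lower, 2 of the 12 higher and 3 of the 23 not called. For the ETS motif these counts were 7, 5 and 8, and for the E-box 1, 3 and 2. These shares are descriptions, and the counts are small.

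Mitochondrial ribosomal protein genes varied over a narrow range. The difference between the highest and the lowest of the 9 group means had a median of 0.46 log2 over the 73 members, and 0.62 over all genes tested. It passed 1 log2 in 2 members (2.74%), Mrpl38 with 2.12 and Mrpl36 with 1.03, and in 21.6% of all genes. The narrowest range was 0.14, for Mrpl49 of the large subunit. The SD within groups had a median of 0.13 for the members and 0.16 for all genes.

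The members did not follow a common course over the 9 groups. The correlation between pairs of members across group means had a median of 0.15 over 2628 pairs, and 28.8% of pairs were above 0.5. With the median of the other members, 29 of 73 members correlated above 0.5 and 18 below 0. Nearest to that median were Mrps22 (r = 0.91), a small-subunit protein without a bacterial counterpart, and Mrpl13 (r = 0.90) of the large subunit. Farthest was Mrpl32 (r = -0.59), the large-subunit protein whose maturation by the m-AAA protease is known to be needed for ribosome assembly. These correlations rest on 9 points that share arrays and are given as a description.

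**Figure D1:**
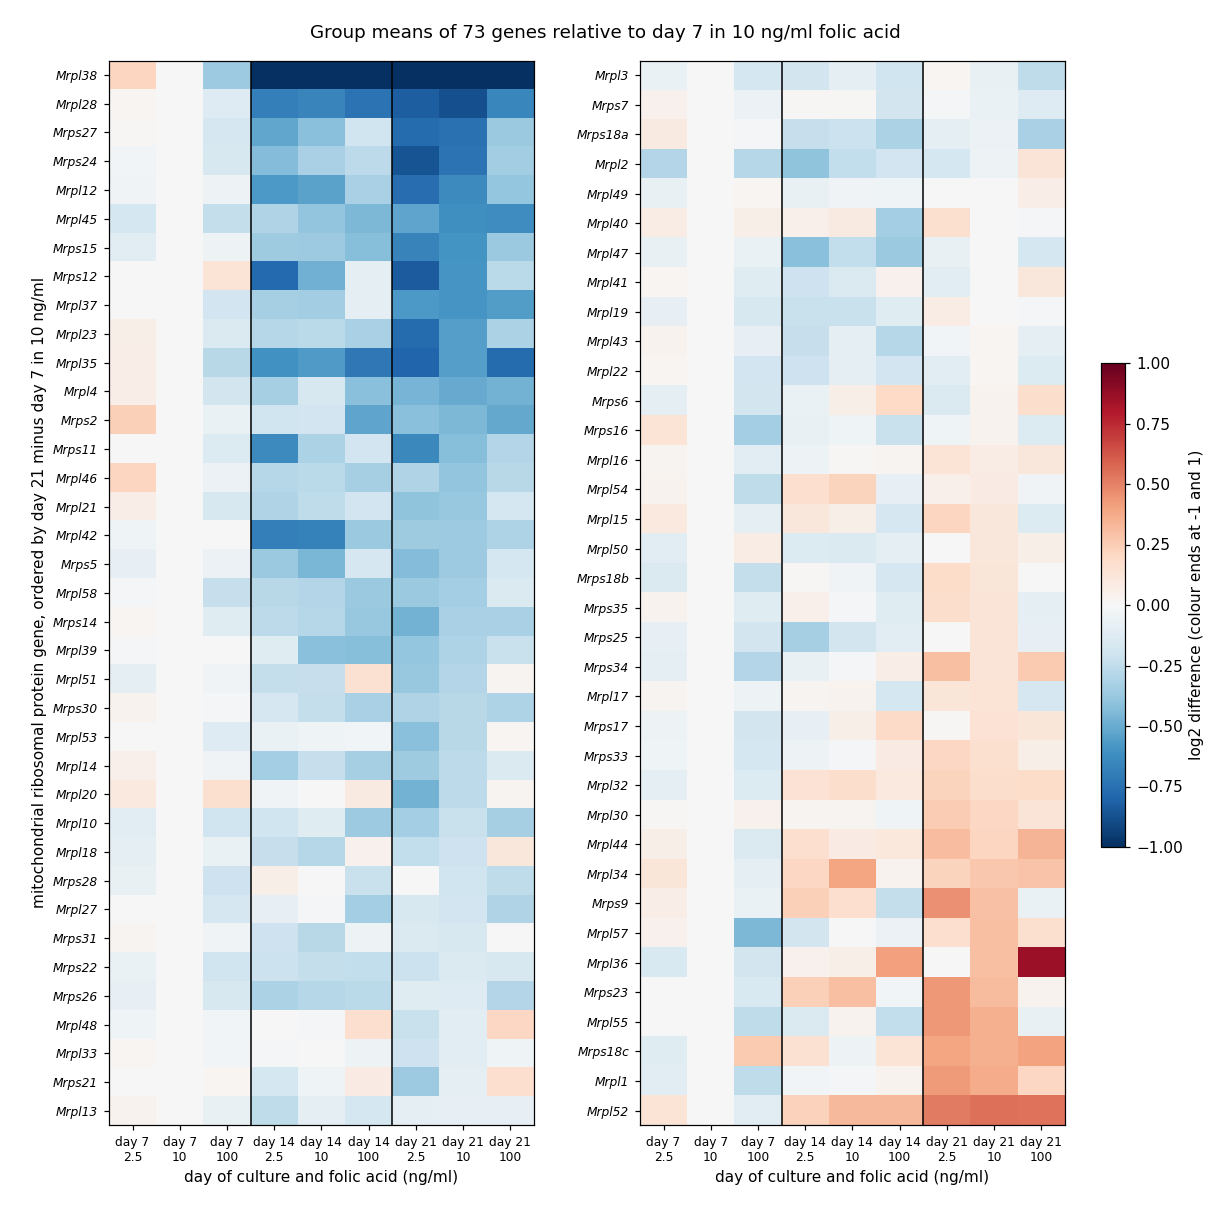
Group means of the 73 genes minus their mean at day 7 in 10 ng/ml folic acid (log2, colour; columns are days and folic acid in ng/ml, rows are genes ordered by their change between day 21 and day 7 in sufficient medium). Mrpl38 (range 2.12) and Mrpl36 (range 1.03) stand out, and both colours appear in the later columns.

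Time in culture was the comparison with the widest changes among the members. More members fell than rose in sufficient and deficient medium, and about as many fell as rose in excess medium. At day 21 against day 7 in sufficient medium, 41 of 73 members were called, 29 lower and 12 higher, where 62.6% of all genes were called, 33.1% lower and 29.5% higher. The members' median change was -0.08 and that of all genes -0.02, and the median size of change was 0.22 for members and 0.31 for all genes. In array data a change per cell and a change in the mix of cells cannot be told apart. Without the 2 day 7 arrays of high beta-actin, 39 members were called, 38 of them among the 41. In that fit 28.6% of all genes were higher and 28.3% lower.

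Mrpl38, a protein of the central protuberance of the large subunit, had the lowest change. Its values in sufficient medium at day 21 were 5.56, 5.33, 5.02, 5.04 and 5.19, against 7.77, 7.17, 5.60, 7.39 and 7.32 at day 7. The groups did not overlap, although replicate 6 of day 7, an array with a serial above 45, read 5.60 where the others read 7.17 or more. The change was -1.82 ± 0.28 (SE; 5.23 ± 0.22 at day 21 and 7.05 ± 0.84 at day 7, SD, n = 5 each; limma, adjusted p = 4.39e-07), and -2.11 when only arrays with serials up to 45 were used. Across days 7, 14 and 21 the means in sufficient medium were 7.05, 5.94 and 5.23, in deficient medium 7.27, 6.01 and 5.15, and in excess medium 6.69, 5.33 and 5.15, so the media had means of 5.15 to 5.23 at day 21.

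Among large-subunit proteins with bacterial counterparts, Mrpl28 fell furthest. It stood at 7.84, 7.71, 7.70, 7.94 and 7.77 at day 21, against 9.04, 8.77, 8.57, 8.65 and 8.33 at day 7, with no overlap (-0.88 ± 0.10, SE; limma, adjusted p = 2.61e-10). Mrpl12, the stalk protein that recruits translation factors and is also known to bind the mitochondrial RNA polymerase, averaged 10.52 ± 0.11 at day 21 and 11.16 ± 0.15 at day 7 (SD, n = 5 each), a change of -0.64 ± 0.08 (SE; limma, adjusted p = 4.06e-09). Mrpl10, which anchors Mrpl12 to the ribosome, changed by -0.23 ± 0.08, and its groups overlapped. Mrpl1 of the L1 stalk, at the exit of spent tRNA, went the other way with 0.37 ± 0.12. The 2 stalks of the large subunit thus had members called in opposite directions.

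Around the exit tunnel, Mrpl45, which ties the ribosome to the inner membrane, averaged 9.33 ± 0.14 at day 21 and 9.94 ± 0.15 at day 7 (SD, n = 5 each), with no overlap. Mrpl23, at the tunnel's mouth, changed by -0.55 ± 0.08 and Mrpl44, which has an RNase III fold, by 0.22 ± 0.12, which was not called (limma, adjusted p = 0.123). Mrpl3, near the catalytic centre, and Mrpl41 were at -0.07 ± 0.11 and 0.00 ± 0.08 and were not called. Mrpl37 fell by 0.59, and Mrpl35 by 0.55 with overlapping groups.

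In the small subunit the lowest changes were those of Mrps27, Mrps24, Mrps15 and Mrps12. Mrps27, a pentatricopeptide repeat protein that binds RNA, had values of 4.90, 4.96, 4.76, 4.82 and 4.49 at day 21, against 5.66, 5.84, 5.15, 5.56 and 5.48 at day 7 (-0.75 ± 0.11, SE; limma, adjusted p = 1.35e-07). Both of its other probe sets also fell. Mrps24, the counterpart of the bacterial protein S3 at the entry of the messenger RNA channel, averaged 9.96 ± 0.16 at day 21 and 10.69 ± 0.28 at day 7 (SD, n = 5 each). Mrps12, part of the decoding centre, averaged 9.46 ± 0.05 at day 21 and 10.05 ± 0.14 at day 7, and Mrps15 changed by -0.60 ± 0.07. None of these 4 genes, named for their low changes, overlapped between the days, and the share of all genes without overlap was not counted.

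Other small-subunit proteins of known position were lower by less or were not called. Mrps2, Mrps5 and Mrps14 changed by -0.45 ± 0.10, -0.36 ± 0.07 and -0.33 ± 0.07 and were called. Mrps7, Mrps16, Mrps22, Mrps28 and Mrps34 lay between -0.20 and 0.13 and were not called (limma, lowest adjusted p = 0.114). Of the relatives of bacterial S18, Mrps18a, which sits in the large subunit, was at -0.06 ± 0.09 and Mrps18b at 0.12 ± 0.08. Mrps18c was called higher at 0.36 ± 0.13, but its other probe sets ran the opposite way, at -0.18 and, for the one under the filter, -0.20. Mrps30, which carries a small-subunit name and sits in the large subunit, changed by -0.28 ± 0.06.

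The 12 members that rose with time were led by Mrpl52, a large-subunit protein without a bacterial counterpart. Its values were 6.81, 6.29, 6.38, 6.37 and 6.44 at day 21, against 5.95, 6.05, 5.80, 5.91 and 5.82 at day 7, with no overlap (0.55 ± 0.08, SE; limma, adjusted p = 2.54e-07). Of the small subunit, Mrps23 averaged 10.75 ± 0.08 at day 21 and 10.43 ± 0.04 at day 7, and Mrps9, whose tail reaches the tRNA in the bacterial ribosome, 9.05 ± 0.07 at day 21 and 8.76 ± 0.15 at day 7 (SD, n = 5 each). Neither overlapped between the days. Mrpl55, Mrpl36, Mrpl57, Mrpl34 and Mrpl30 rose by 0.35, 0.30, 0.30, 0.27 and 0.21, and the call of Mrpl36 was lost with serials up to 45 alone (0.14; limma, adjusted p = 0.277).

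By number, the large-subunit proteins named as in bacteria had 11 of 25 lower and 6 higher, and those with higher numbers had 9 of 21 lower and 3 higher. The small-subunit proteins named as in bacteria had 6 of 14 lower and 2 higher, and those with higher numbers 2 of 11 lower and 1 higher. Of Mrps18a and Mrps30, which belong to the large subunit, Mrps30 was lower. Over all genes, 33.1% were lower and 29.5% higher, and the classes are small.

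**Figure D2:**
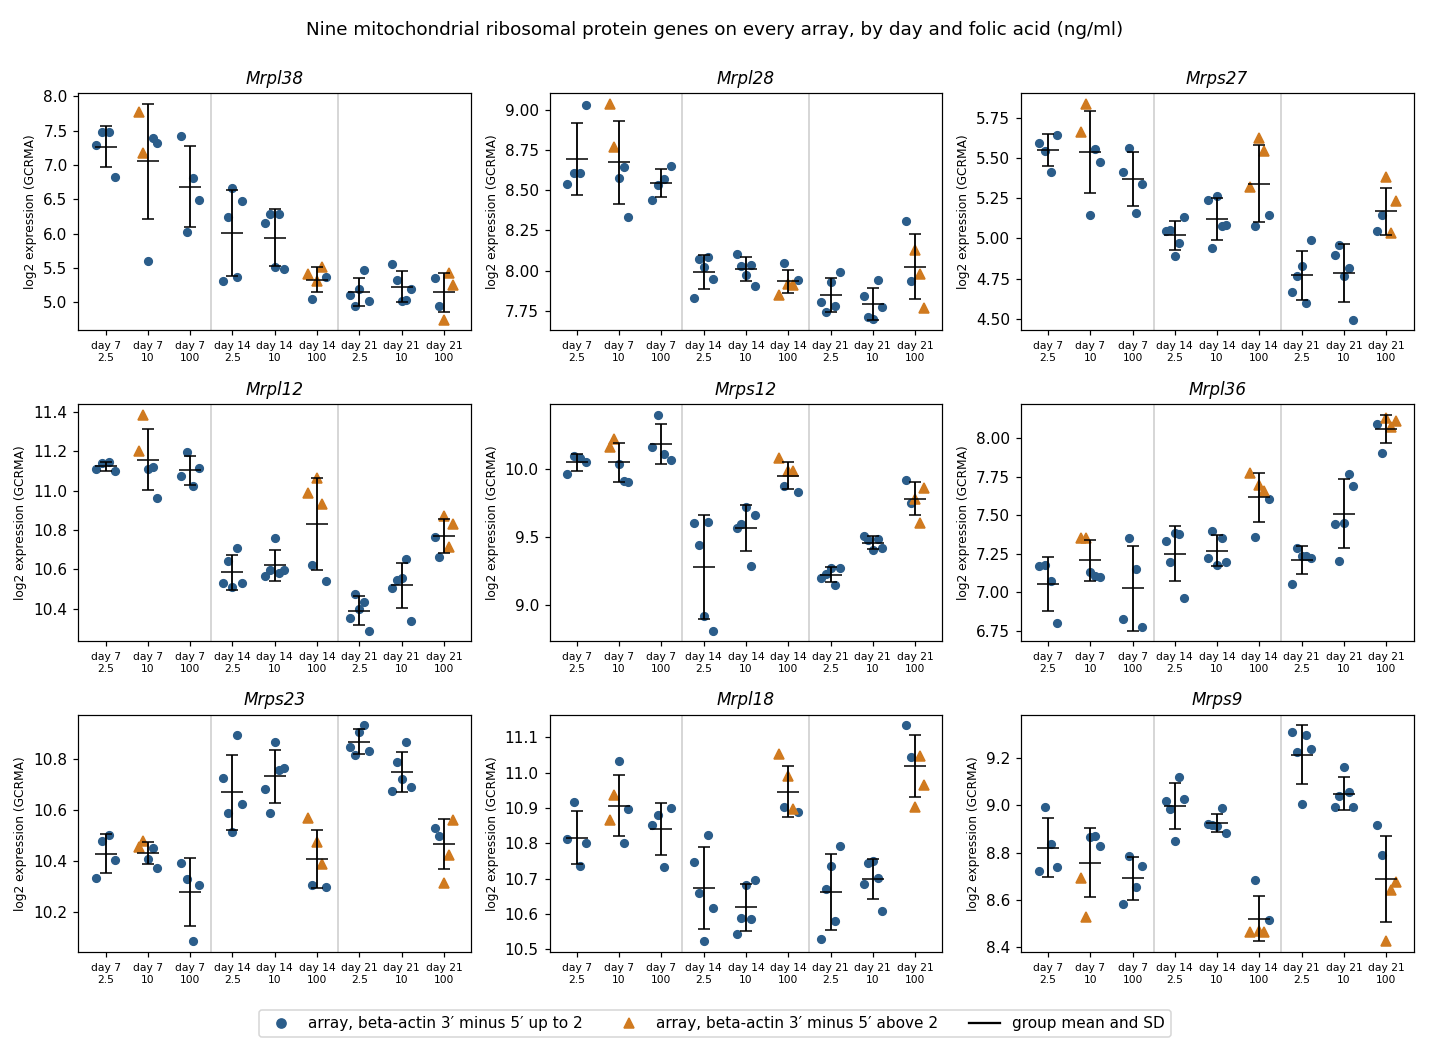
Log2 expression of 9 members on every array (points; triangles are arrays with a beta-actin 3′ minus 5′ difference above 2), by day and folic acid in ng/ml, with group means and SDs as bars. Mrpl38, Mrpl28, Mrps27, Mrpl12 and Mrps12 are lower at day 21 than at day 7 in sufficient medium, and Mrpl36 reaches 8.06 ± 0.09 in excess medium at day 21, above all sufficient arrays.

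The time course was then split at day 14. In sufficient medium, 34 members were called at day 14 against day 7, 29 lower and 5 higher, where 44.6% of all genes were called, 24.7% lower and 19.9% higher. At day 21 against day 14, 19 were called, 10 lower and 9 higher, where 34.6% of all genes were called, 16.7% lower and 17.9% higher. These steps share the day 14 arrays. Without the 2 day 7 arrays of high beta-actin, 20 members were called in the first step, and the share of all genes is not given for that fit. Mrpl42, a mitochondria-specific protein of the large subunit, was at -0.68 ± 0.09 at day 14 against day 7 and at 0.31 ± 0.09 at day 21 against day 14, both called. Mrps24 was at -0.32 ± 0.09 in the first step and at -0.41 ± 0.09 in the second, also both called.

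The course in time was described in deficient and excess medium from separate arrays. In deficient medium 41 members were called at day 21 against day 7, 31 lower and 10 higher, where 64.8% of all genes were called, 34.1% lower and 30.7% higher. In excess medium 34 members were called, 16 lower and 18 higher, where 60.0% of all genes were called, 25.4% lower and 34.6% higher. Without the 3 day 21 arrays of high beta-actin in excess medium, 28 members were called there, 12 lower and 16 higher. Of the 28, 27 were among the 34, and the share of all genes is not given for that fit. The median member change was -0.12 in deficient medium, -0.01 in excess medium and -0.08 in sufficient medium. Called lower in both deficient and sufficient medium were 28 members, 90.3% of the deficient list and 96.6% of the sufficient list. Calls shared between media were not counted over all genes, so these shares describe the members alone. Called lower in all 3 media were 14 members, among them Mrpl12, Mrpl28, Mrpl35, Mrpl38, Mrpl45, Mrps2, Mrps12 and Mrps15, and called higher in all 3 were Mrpl1, Mrpl32, Mrpl52 and Mrps23. Of the 12 named here, Mrps12 was not called in excess medium without those arrays (-0.35; limma, adjusted p = 0.0517).

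With all arrays, a pair of members had called changes in opposite directions in excess and sufficient medium. Mrpl18, which in bacteria binds the 5S RNA, changed by 0.18 ± 0.06 in excess medium and by -0.21 in sufficient medium. Mrpl17, near the end of the exit tunnel, changed by -0.12 ± 0.05 in excess medium and by 0.14 in sufficient medium. The changes in excess medium without the high beta-actin arrays were 0.25 for Mrpl18, still called, and -0.07 for Mrpl17, not called (limma, adjusted p = 0.391). The sign was the same in excess and sufficient medium for 57 of 73 members (78.1%, against 78.5% of all genes), and in deficient and sufficient medium for 62 (84.9%, against 88.4%). These shares were close to those of all genes.

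In deficient medium, members were called at day 21 alone. At day 7, 0 of 73 members were called by limma (0% of all genes called, 4 members with an unadjusted p under 0.05), and at day 14, 0 were called (0.088% of all genes, 6 members unadjusted). Member changes lay between -0.29 and 0.24 at day 7, between -0.32 and 0.30 at day 14 and between -0.30 and 0.21 at day 21. At day 21, 1 member was called, lower (0.781% of all genes called, 0.374% lower, 8 members unadjusted), Mrps21, the small-subunit counterpart of bacterial S21. By the interaction of deficiency with day, the shift from day 7 to day 21 was called for 0 members (0.044% of all genes, 4 members unadjusted).

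Mrps21 had values of 10.65, 10.73, 10.50, 10.62 and 10.80 in deficient medium at day 21, against 11.06, 10.83, 11.00, 10.89 and 10.85 in sufficient medium. The groups came close but did not overlap, with 10.80 as the highest deficient and 10.83 as the lowest sufficient value. The change was -0.27 ± 0.06 (SE; 10.66 ± 0.11 in deficient and 10.93 ± 0.10 in sufficient medium, SD, n = 5 each; limma, adjusted p = 0.0318). It was not called when replicate 2, 3, 4 or 5 of deficient medium or replicate 1 or 4 of sufficient medium was left out (limma, adjusted p of 0.0505 to 0.124). At day 7 Mrps21 averaged 11.02 in both media, and at day 14 it averaged 10.84 ± 0.06 in deficient and 10.98 ± 0.13 in sufficient medium. Mrpl36 at -0.30 ± 0.10, Mrps12 at -0.24 ± 0.11 and Mrpl12 at -0.13 ± 0.08 were not called at day 21 (limma, adjusted p = 0.17, 0.35 and 0.522).

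**Figure D3:**
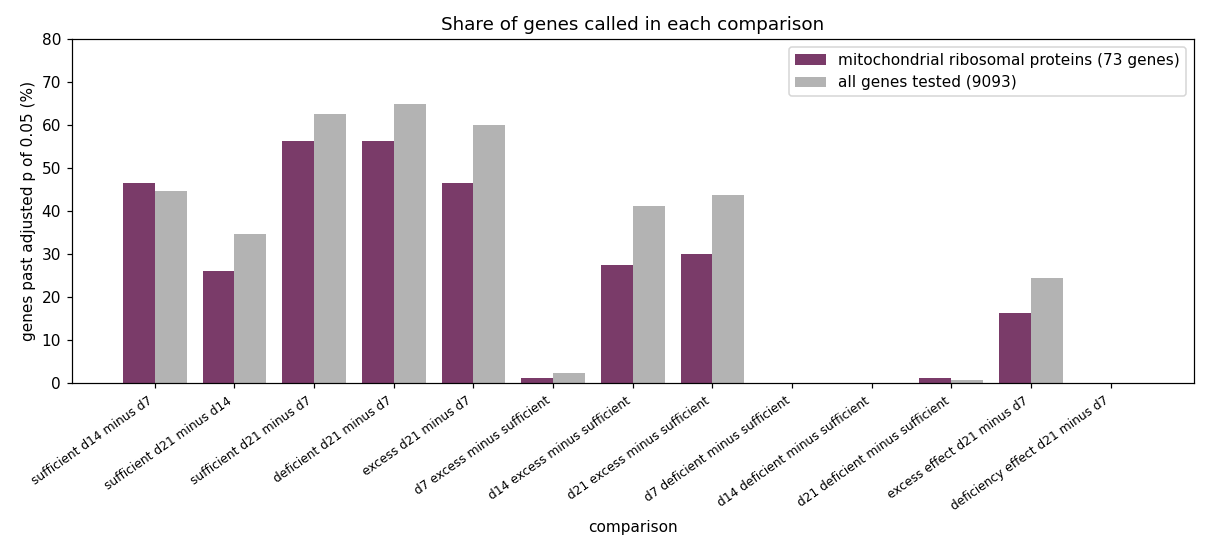
Share of genes past an adjusted p of 0.05 (bars, % of genes) in the 13 comparisons, for the 73 mitochondrial ribosomal protein genes and for all 9093 genes tested. The members' share was 56.2% against 62.6% for sufficient medium at day 21 against day 7, and 30.1% against 43.7% for excess medium at day 21.

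At day 7 most members had slightly lower means in excess medium, and 1 was called. The change was positive for 9 of 73 members, which was not counted over all genes, and the median member change was -0.13, against -0.06 for all genes. With each member centred on its mean over all arrays, the member median was 0.17 and 0.20 on the 2 sufficient arrays of high beta-actin. It was 0.03 to 0.06 on the other sufficient arrays and -0.06 to 0.11 on the excess arrays. The part of RNA quality in this shift was not tested. The member called was Mrpl57, a small protein of the large subunit (2.38% of all genes called, 2.10% lower). Its values were 7.15, 7.24, 7.16 and 7.27 in excess medium, against 7.66, 7.81, 7.69, 7.58 and 7.54 in sufficient medium. The groups did not overlap (-0.45 ± 0.11, SE; 7.21 ± 0.06 in excess and 7.65 ± 0.10 in sufficient medium, SD, n = 4 and 5; limma, adjusted p = 0.0205). The call was lost without replicate 1 or 3 of excess medium or replicate 2 of sufficient medium (limma, adjusted p of 0.0736 to 0.0829), and without the 2 high beta-actin arrays the change was -0.40 (limma, adjusted p = 0.15). Without replicate 6 of excess medium 5 members were called.

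Excess folic acid at days 14 and 21 changed members in both directions. At day 14, 20 of 73 were called, 8 higher and 12 lower, where 41.2% of all genes were called, 22.3% higher and 18.8% lower. At day 21, 22 were called, 15 higher and 7 lower, where 43.7% of all genes were called, 24.4% higher and 19.2% lower. The members' share was below that of all genes on both days, and their median size of change was 0.12 at day 14 and 0.13 at day 21, against 0.20 and 0.21 for all genes. Both comparisons include the arrays of high beta-actin, whose 3′ minus 5′ difference reached 2.80 in excess medium at day 14 and 2.79 at day 21, with a highest value of 1.82 in sufficient medium at day 14 and 1.98 at day 21. Without those arrays 14 members were called at day 14, 1 higher and 13 lower, and 12 at day 21, 10 higher and 2 lower. Calls over all genes were also fewer in that fit. Of all 9093 genes, 902 (9.92%) were higher and 1231 lower at day 14. At day 21, 1382 (15.2%) were higher and 1237 (13.6%) lower.

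Mrpl36, a small zinc-binding protein whose promoter is shown above, had the highest change at day 21. Its values were 8.09, 7.90, 8.13, 8.07 and 8.11 in excess medium, against 7.44, 7.21, 7.45, 7.76 and 7.69 in sufficient medium. The groups did not overlap (0.55 ± 0.10, SE; 8.06 ± 0.09 in excess and 7.51 ± 0.22 in sufficient medium, SD, n = 5 each; limma, adjusted p = 3.33e-05). Without the high beta-actin arrays the change was 0.49, still called, and with serials up to 45 alone it was 0.66. At day 14 it averaged 7.62 ± 0.16 in excess and 7.27 ± 0.10 in sufficient medium, a change of 0.35 that was called with all arrays and was 0.21 without the high beta-actin arrays, not called (limma, adjusted p = 0.286). At day 7 the means were 7.03 ± 0.27 in excess and 7.21 ± 0.13 in sufficient medium. In excess medium Mrpl36 was 1.03 ± 0.11 higher at day 21 than at day 7, the highest change of a member in that comparison, and 0.97 higher without the high beta-actin arrays.

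Mrpl18 was called higher on both days, with and without the high beta-actin arrays. It had 11.05, 10.90, 10.99, 10.90 and 10.89 in excess medium at day 14, against 10.54, 10.59, 10.68, 10.59 and 10.70 in sufficient medium (0.33 ± 0.06, SE; limma, adjusted p = 3e-05). At day 21 it had 11.13, 11.04, 10.90, 11.05 and 10.96 in excess medium, against 10.69, 10.74, 10.75, 10.70 and 10.61 in sufficient medium (0.32 ± 0.06, SE; limma, adjusted p = 2.68e-05). No excess array fell within the range of the sufficient ones on either day. Without the high beta-actin arrays the change was 0.28 at day 14 and 0.39 at day 21.

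Mrpl12 and Mrpl51 differed between the excess arrays of day 14 along with beta-actin. Mrpl12 read 10.99, 11.06 and 10.93 on the 3 arrays of high beta-actin and 10.62 and 10.54 on the other 2, against 10.57 to 10.76 in sufficient medium. The change was 0.21 ± 0.08 with all arrays and -0.04 without the 3. Mrpl51, a mitochondria-specific large-subunit protein, read 10.74, 10.68 and 10.81 on the 3 and 10.31 and 10.08 on the other 2, against 10.01 to 10.22 in sufficient medium, with a change of 0.39 ± 0.09 with all arrays and 0.06 without them. Mrpl48 was at 0.19 ± 0.07 with all arrays and -0.01 without, and Mrps5 at 0.29 ± 0.07 with all arrays and 0.12 without. None of these 4 was called at day 14 without the 3 arrays (limma, lowest adjusted p = 0.347). The part of RNA quality in these differences was not tested beyond this.

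At day 21 the same 4 genes were again called higher. Mrpl12 averaged 10.77 ± 0.09 in excess and 10.52 ± 0.11 in sufficient medium (0.25 ± 0.08, SE; limma, adjusted p = 0.00842), and 0.19 without the high beta-actin arrays (limma, adjusted p = 0.0516). Mrpl48, a protein of the central protuberance, was at 0.32 ± 0.07, and 0.31 without those arrays, still called. Mrpl51 was at 0.32 ± 0.09 and 0.13 without them, and 1 of its other 3 probe sets ran the opposite way. Mrps5, at the entry of the messenger RNA channel, was at 0.19 ± 0.07, and 0.17 without them, and neither Mrpl51 nor Mrps5 was then called (limma, adjusted p = 0.26 and 0.174).

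Of the small subunit, Mrps12, Mrps27, Mrps24 and Mrps21 were called higher in excess medium at day 21. Mrps12 had 9.92, 9.75, 9.79, 9.61 and 9.86 in excess medium, against 9.51, 9.48, 9.40, 9.49 and 9.42 in sufficient medium, with no overlap. At day 14 it had 10.09, 9.87, 9.99, 9.99 and 9.83 in excess medium, against 9.57, 9.60, 9.72, 9.29 and 9.66 in sufficient medium, again with no overlap. Its change was 0.33 ± 0.11 at day 21 and 0.39 ± 0.11 at day 14 (limma, adjusted p = 0.0117 and 0.00353). Without the high beta-actin arrays the changes were 0.38 at day 21 and 0.29 at day 14, neither of them called (limma, adjusted p = 0.0508 and 0.153).

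Mrps27 averaged 5.17 ± 0.15 in excess and 4.79 ± 0.18 in sufficient medium at day 21 (SD, n = 5 each; 0.38 ± 0.11, SE), close to the filter, and 1 of its other 2 probe sets ran the opposite way. Mrps24 averaged 10.34 ± 0.12 in excess and 9.96 ± 0.16 in sufficient medium, and 1 sufficient array at 10.20 lay above the lowest excess array at 10.17. Mrps21 averaged 11.19 ± 0.08 in excess and 10.93 ± 0.10 in sufficient medium, with no overlap, so that it was called higher in excess and lower in deficient medium at day 21, against the same sufficient arrays. Across 2.5, 10 and 100 ng/ml its means at day 21 were 10.66, 10.93 and 11.19. Without the high beta-actin arrays Mrps24 and Mrps21 stayed called at 0.30 and 0.29, and Mrps27 did not at 0.31 (limma, adjusted p = 0.0516).

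Lower in excess medium on both days were Mrps9, Mrps23, Mrpl17 and Mrpl15. Mrps9 had 8.46, 8.69, 8.47, 8.47 and 8.52 in excess medium at day 14, against 8.92, 8.92, 8.91, 8.99 and 8.88 in sufficient medium (-0.40 ± 0.07, SE; limma, adjusted p = 4.32e-05). At day 21 it averaged 8.69 ± 0.18 in excess and 9.05 ± 0.07 in sufficient medium (SD, n = 5 each). The groups did not overlap on either day. Without the high beta-actin arrays its change was -0.32 at day 14, called, and -0.20 at day 21, not called (limma, adjusted p = 0.0724). The other probe set of Mrps9 had a mean of 8.45, against 8.86 for the one read. With all arrays it changed by less, -0.09 at day 14 and -0.05 at day 21.

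Mrps23, a mitochondria-specific protein of the small subunit, averaged 10.41 ± 0.11 in excess and 10.73 ± 0.10 in sufficient medium at day 14, and 10.46 ± 0.10 in excess and 10.75 ± 0.08 in sufficient medium at day 21 (SD, n = 5 each). Mrpl17 had 11.53, 11.50, 11.46, 11.41 and 11.43 in excess medium at day 21, against 11.74, 11.76, 11.86, 11.72 and 11.79 in sufficient medium (-0.30 ± 0.05, SE; limma, adjusted p = 2.73e-06). Neither gene overlapped between the media on either day. Both stayed called without the high beta-actin arrays, Mrps23 at -0.43 and -0.23 and Mrpl17 at -0.20 and -0.25 at days 14 and 21. Mrpl15 was at -0.23 ± 0.06 and -0.25 ± 0.06 on the 2 days, and without those arrays it was called at day 14 alone.

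Further members were called on a single day. At day 14, Mrpl40, Mrpl34, Mrps2, Mrpl27, Mrpl54, Mrpl4, Mrpl10 and Mrps7 were lower by 0.43, 0.36, 0.33, 0.32, 0.30, 0.25, 0.25 and 0.20, and Mrpl42 was higher by 0.30. Mrpl54 and Mrpl10 did not overlap between the media, and Mrpl40 and Mrps2 did. The calls of Mrpl40 (-0.28), Mrpl27 (-0.24) and Mrpl42 (0.28) were lost without the high beta-actin arrays (limma, adjusted p = 0.138, 0.0676 and 0.0961), and the other 6 were still called. At day 21, Mrpl55, Mrps18a and Mrps35 were lower by 0.43, 0.26 and 0.21, and Mrpl53, which stands near the base of the stalk, and Mrpl20 were higher by 0.29 and 0.28. Without those arrays Mrpl53 and Mrpl20 were still called, and Mrpl55 (-0.26), Mrps18a (-0.25) and Mrps35 (-0.20) were not (limma, adjusted p = 0.224, 0.063 and 0.0937). Called higher on both days were 7 members, 87.5% of the day 14 list and 46.7% of the day 21 list. Called lower on both were 4, 33.3% and 57.1% of the lists, and such sharing was not counted over all genes. The sign was the same on both days for 51 of 73 members (69.9%, against 74.7% of all genes).

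**Figure D4:**
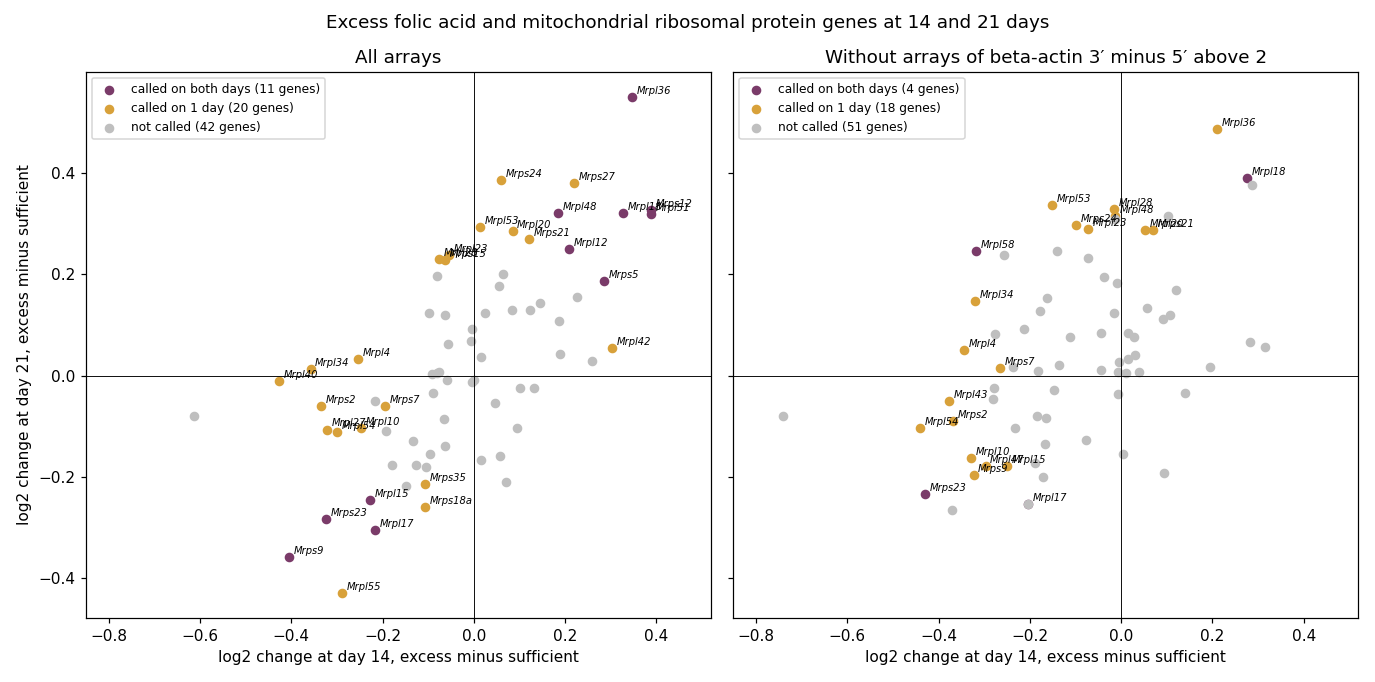
Log2 change in excess against sufficient medium at day 14 (x axis) and day 21 (y axis) for the 73 genes, with all arrays (left) and without arrays whose beta-actin 3′ minus 5′ difference was above 2 (right); colour gives the number of days on which a gene was called. With all arrays 11 genes were called on both days and Mrpl36 lay highest; without the 8 arrays Mrpl12 and Mrpl48 moved to -0.04 and -0.01 at day 14.

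The effect of excess medium differed between day 21 and day 7 for some members by the interaction term. It was called for 12 members, 10 upward and 2 downward, where 24.5% of all genes were called, 17.0% upward and 7.53% downward, and the median was 0.14 for members and 0.09 for all genes. Mrpl36 was first with 0.73 ± 0.15 (SE; limma, adjusted p = 0.000317), followed by Mrps24 and Mrps27 with 0.55 each. Mrpl17 and Mrps9 were negative with -0.26 ± 0.07 and -0.29 ± 0.11. The other probe set of Mrps9 had an excess change of -0.15 at day 7 and -0.05 at day 21. That of Mrps24, with a low mean of 4.05, had 0.24 at day 7 and 0.22 at day 21. Those of Mrps27, with low means of 3.91 and 3.52, went from -0.11 to 0.02 and from -0.10 to -0.04. Without the high beta-actin arrays 4 were called, Mrpl36 at 0.57, Mrpl53 at 0.47, Mrpl18 at 0.46 and Mrpl58, a peptidyl-tRNA hydrolase built into the large subunit, at 0.33. All 12 kept their sign in that fit, for which the share of all genes called is not given.

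Other genes of mitochondrial translation were read beside the members, from lists drawn up for the purpose. Their counts stand beside 33.1% of all genes lower and 29.5% higher at day 21 against day 7 in sufficient medium, and 24.4% higher and 19.2% lower in excess medium at day 21. A further 6 genes without an Mrp symbol were listed as mitoribosome subunits, Kgd4 by its former name alone. Of these, 3 were lower at day 21 than at day 7 in sufficient medium: Gadd45gip1 by 0.84, Dap3, a GTP-binding protein of the small subunit, by 0.83, and Ptcd3 by 0.75. In excess medium at day 21, 3 of the 6 were higher, with Dap3 at 0.27 ± 0.09 and Kgd4, the former Mrps36, at 0.41 ± 0.10. Of 22 assembly factors and rRNA-modifying enzymes, 7 were lower and 5 higher with time, from -0.68 ± 0.11 for the GTPase Noa1 to 0.85 ± 0.08 for Ngrn, and at day 21 in excess medium 4 were lower and 3 higher, with Mtg1 at -0.50 ± 0.11 and Noa1 at 0.34 ± 0.11.

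Among 13 translation factors, 4 were lower and 3 higher with time, and in excess medium at day 21, 4 were higher and 2 lower. Mtfmt, which puts the folate-derived formyl group on the initiator tRNA, was 0.67 ± 0.10 higher at day 21 than at day 7. Oxa1l, the insertase that receives new chains in the inner membrane, was 0.42 ± 0.09 higher with time and at -0.36 ± 0.09 in excess medium at day 21. Of 14 mitochondrial aminoacyl-tRNA synthetases and amidotransferase subunits, 6 were lower and 2 higher with time, and 0 were higher and 2 lower in excess medium at day 21, Hars2 at -0.76 ± 0.11 and Gatb at -0.26 ± 0.09.

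Of 8 genes for transcription and upkeep of mitochondrial DNA, 4 were lower with time and 4 higher in excess medium at day 21. Tfb2m, a mitochondrial transcription factor, was at -0.39 ± 0.08 with time and at 0.40 ± 0.08 in excess medium at day 21, and Polg, the mitochondrial DNA polymerase, at -0.54 ± 0.10 and 0.28 ± 0.10. Of 8 nuclear regulators, 4 were lower and 1 higher with time. Myc was at -1.19 ± 0.13, Pprc1 at -0.47 ± 0.09, Nrf1 at -0.33 ± 0.13 and Gabpb1 at -0.32 ± 0.09, Esrra was at 0.41 ± 0.12, and Gabpa, Yy1 and Perm1 were not called. In excess medium at day 21, 3 of the 8 were higher and 0 lower, Nrf1 at 0.60 ± 0.13, Pprc1 at 0.33 ± 0.09 and Yy1 at 0.24 ± 0.06. The excess and time comparisons share the sufficient arrays of day 21. In excess medium at day 21, 15.2% of all genes were higher and 13.6% lower without the high beta-actin arrays. In that fit 0 of the 6 genes listed as further subunits were called, and 4 assembly factors were lower and 0 higher. Of the rest, 1 translation factor was higher, 1 synthetase was higher and 1 lower, and 3 genes of mitochondrial DNA were higher. Of the regulators 2 were higher and 1, Perm1, lower. Of the genes named here, Mtg1, Hars2, Tfb2m, Nrf1 and Yy1 were still called in excess medium at day 21. Dap3, Kgd4, Noa1, Oxa1l, Gatb, Polg and Pprc1 were not. With time, the Nrf1 call was lost without the 2 day 7 arrays (-0.24; limma, adjusted p = 0.167), and the other genes named here for time were still called. The list counts with time then were 5 lower and 7 higher for assembly factors, and 2 lower and 3 higher for translation factors. Synthetases had 4 lower and 2 higher, and regulators 3 lower and 1 higher. Further subunits and genes of mitochondrial DNA each had 3 lower and 0 higher. Of all genes, 28.3% were lower and 28.6% higher in that fit.

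Genes of the cytosolic ribosome and of cell division were read for comparison. Of 40 cytosolic ribosomal protein genes tested, 1 was lower and 10 were higher at day 21 than at day 7 in sufficient medium, and in excess medium 18 were lower and 1 higher at day 14 and 2 were lower at day 21. All 19 cell division genes were lower with time, with a median of -1.98, and all 19 were higher in excess medium at days 14 and 21, with medians of 0.96 and 1.03. All 19 were still called on both days without the high beta-actin arrays, and of the cytosolic ribosomal genes 2 were lower at day 14 and 0 at day 21. Plk1, a mitotic kinase, was at -2.83 ± 0.11 with time and Pcna, the replication clamp, at -0.76 ± 0.05, each a change called by limma. The highest member in excess medium at day 21 was Mrpl36 at 0.55.

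**Figure D5:**
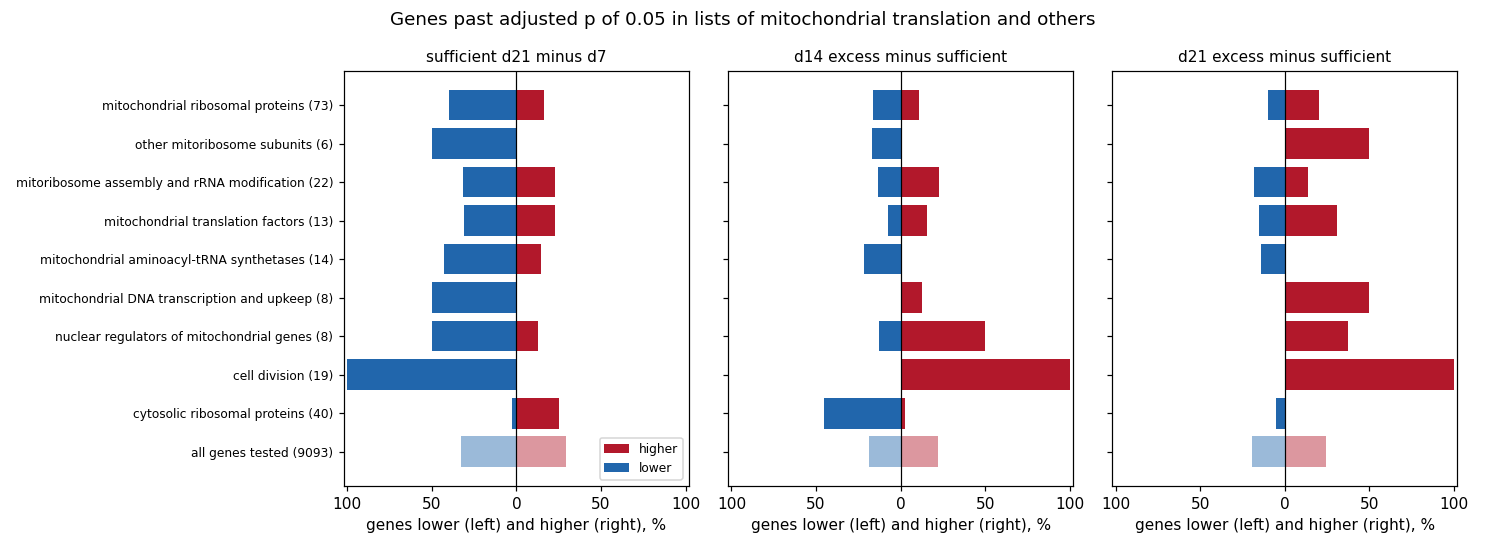
Share of genes past an adjusted p of 0.05 in lists of mitochondrial translation and others (rows, number tested in brackets), lower to the left and higher to the right (%), for sufficient medium at day 21 against day 7 and for excess against sufficient medium at days 14 and 21; the pale bars are all genes tested. The 19 cell division genes were all called in each panel, while the 73 mitochondrial ribosomal protein genes had 29 lower and 12 higher with time and 7 lower and 15 higher in excess medium at day 21.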

How the data were processed

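Log2 expression of 31099 probe sets was deposited for 43 Affymetrix rat arrays, made by the authors with GCRMA, per the submitters' processing notes, which also name limma. GCRMA corrects background by probe sequence, normalizes by quantiles and summarizes probe sets; versions were not given in the sources used here. Values lay between 0.844 and 15.0 and array medians between 3.66 and 3.72; 0 pairs of arrays were identical. Precision is limited by how many arrays a group has.

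Probe sets with 1 symbol in the platform annotation (20826) were used, and the members had 97 of them, with several for 18 genes. Group, day and replicate were taken from the sample titles. A model of the 9 group means over all arrays was fitted with limma 3.58.1 under R 4.3.3 (34 residual degrees of freedom), two-sided, with Benjamini-Hochberg adjustment over 9093 genes, for 13 comparisons. The procedure was tested on simulated data. Named were up to 10 members with the highest and 10 with the lowest change among those called, and members of known role. The members and lists were chosen with earlier results of these data known. The main model did not pair samples by replicate number. In each of the 11 pairwise comparisons checked, at least 1 same-numbered pair of arrays had deviations correlated at 0.1 or less. Over all comparisons these correlations ran from -0.54 to 0.59. With 3 or 4 such pairs per comparison, the check cannot exclude that the numbers pair the samples. Plots used matplotlib.

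Alternatives covered the filter, all probe sets averaged, renormalization, array weights, serials, a replicate block, beta-actin and each array left out. The planned beta-actin limit, a ratio of 3, left 0 comparisons; the limit of 2 (log2) was chosen after seeing the data.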

Additional observations from a re-analysis of the deposited data

Results flagged for a closer look

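Dixon's test was run on 153 sets of values, and chance alone flags about 1 in 20 sets. A share close to that, 9 cases, had a single array apart from the rest of its group. In day 7 groups these were Mrpl28 at 9.03 in deficient medium replicate 6 and Mrpl38 at 5.60 in sufficient medium replicate 6. At day 14 they were Mrps21 at 11.24 in excess medium replicate 1, Mrps9 at 8.69 in excess medium replicate 6 and Mrpl12 at 10.76 in sufficient medium replicate 4. At day 21 they were Mrpl36 at 7.05 in deficient medium replicate 2, Mrps9 at 9.00 in deficient medium replicate 4, Mrpl36 at 7.90 in excess medium replicate 2 and Mrpl35 at 8.13 in sufficient medium replicate 1.

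The effect of excess against sufficient medium differed between day 21 and day 7 for 12 members by limma's interaction term. It was more positive at day 21 for Mrpl36 (0.73), Mrps24 (0.55), Mrps27 (0.55), Mrpl53 (0.43), Mrpl58 (0.43), Mrpl18 (0.39), Mrpl23 (0.39), Mrpl48 (0.34), Mrpl12 (0.30) and Mrps15 (0.28). It was more negative for Mrps9 (-0.29) and Mrpl17 (-0.26). For Mrps9 this holds for the probe set read, while its other probe set had -0.15 at day 7 and -0.05 at day 21. The other probe set of Mrps24 had 0.24 and 0.22 on these days. Those of Mrps27 went from -0.11 to 0.02 and from -0.10 to -0.04. Without the arrays of high beta-actin, the term for Mrps9 was -0.03 and that for Mrps15 was 0.11, neither called.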

How the results depend on the processing

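The counts of called members at day 21 against day 7 kept within 1.5 times of the value reported in all settings but serials above 45 alone, where 8 members were called in sufficient and 12 in excess medium. In that setting the counts were 0, 2 and 6 for excess at days 7, 14 and 21, 1 for sufficient medium at day 14 against day 7, 1 at day 21 against day 14, and 0 for the difference of the excess effect; it has few arrays. With serials up to 45 alone, 6, 10 and 13 members were called for excess at days 7, 14 and 21 and 2 for deficiency at day 21; with the serial as a covariate, 3 for the last. With beta-actin up to 2, excess gave 0 at day 7 and 12 at day 21, sufficient medium at day 14 against day 7 gave 20, and the difference of the excess effect 4. Array weights gave 1 for deficiency at day 14, 2 at day 21, 4 for excess at day 7 and 30 for sufficient medium at day 21 against day 14. Fitting only the groups compared gave 0 for deficiency at day 21, 0 for excess at day 7 and 11 for that last step, and averaging all probe sets gave 0 for excess at day 7. With the replicate number as a block, 0 members were called for deficiency at day 21. Apart from serials above 45 alone, no other count moved by over 1.5 times. Leaving out each array gave 0 to 1 for deficiency at day 14 (1 without deficient replicate 5), 0 to 2 at day 21, 0 at day 7 and 0 for the difference of its effect. It gave 0 to 5, 17 to 23 and 18 to 22 for excess at days 7, 14 and 21 and 9 to 17 for the difference of its effect, and 38 to 41, 38 to 41 and 28 to 35 for day 21 against day 7 in deficient, sufficient and excess medium. For sufficient medium it gave 27 to 33 at day 14 against day 7 and 13 to 20 at day 21 against day 14. Named members that changed sign were Mrpl12 (-0.0384) and Mrpl48 (-0.0139) for excess at day 14 with beta-actin up to 2. With serials above 45 alone, Mrps27 (0.119) changed sign at day 14 against day 7 in sufficient medium, and Mrpl1 (-0.0475) and Mrpl42 (-0.0350) at day 21 against day 14. These values rest on 1 array at day 7, 1 at day 14 and 2 at day 21. With all probe sets averaged, Mrpl52 (-0.0309) did so at day 21 against day 14 and Mrps18c (-0.0064) at day 21 against day 7. Beyond fewer arrays, the cause was not tested.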
